A study of Mus musculus with 12 samples.

Results

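The 10 genes described here encode the core of the DNA replication fork. They are Pola1 and Prim1 (DNA polymerase alpha-primase), Pole and Pold1 (the catalytic subunits of polymerases epsilon and delta), Pcna (the sliding clamp), Fen1 and Lig1 (the flap endonuclease and the ligase that join lagging-strand fragments), Cdc45 and Gins1 (parts of the replicative helicase) and Rpa2 (a subunit of the single-strand binding protein RPA). They were chosen by function, as the entries of the deposited count table whose Entrez identifiers map to these symbols, 10 of 27179 genes. The choice was made with earlier results of these data known. All 10 passed the filter on low counts, which left 14136 genes for testing. The level of each was lowest in the fibroblasts given the inhibitor WM-8014 for 240 h, in all 3 cultures.

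At a replication fork the helicase, in which Cdc45 and the GINS complex bind the MCM ring, unwinds the parental duplex and RPA covers the exposed single strands. Polymerase alpha-primase lays down primers, polymerase epsilon extends the leading strand, and polymerase delta extends the lagging strand held by the Pcna clamp. Fen1 trims the flaps between lagging-strand fragments and Lig1 seals the nicks. Many of these genes are transcribed as cells pass from G1 into S phase, under E2F factors, and are low in cells that have left the cell cycle.

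Mouse embryonic fibroblasts are primary cells grown from the connective tissue of an embryo. They came from wild-type C57BL/6 embryos at embryonic day 13.5 and were grown under 3% oxygen. Cultures were given either WM-8014, which the labels call a MYST inhibitor (MYST proteins are a family of lysine acetyltransferases), or WM-2474, which the labels call an inactive control, each at 10 µM, for 96 or 240 h. No untreated or vehicle-only group entered the comparisons, so all 4 groups share exposure to a compound. Each group had 3 libraries, from cultures numbered 5, 6 and 7, which the series design calls biological replicates. The labels do not say whether cultures with one number came from one embryo, so p-values measure the spread between these cultures. The questions are how the replication fork genes differ between the compounds at each time, and whether the difference grows.

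Library totals ran from 10147466 to 45903190 reads, of which the 10 genes together took 1316 to 15018. The 10 fibroblast markers examined were detected in every library, with Col1a1 at 10750 to 20020 CPM (reads per 1000000 scaled reads). Defining markers of other cell types were at or near 0, with Ptprc (leukocytes) at 0 to 0.477, Epcam (epithelium) at 0 to 0.222 and Myod1 (muscle) at 0 to 0.362 CPM. The summed level of 15 such markers was 15.7 to 16.4 CPM with WM-2474 and 14.5 to 18.3 with WM-8014 at 96 h, and 11.4 to 13.3 and 11.8 to 12.2 CPM at 240 h. All 12 libraries are labelled female, but the Y-linked gene Ddx3y stood at 96.3 to 124 CPM and Xist had at most 4 reads. Cultures 6 and 7 of WM-2474 at 96 h differed from the rest in Misp3, at 0.724 and 0.943 CPM against 79.9 to 285 CPM in the other 10 libraries, and in Stag3, at 1.81 and 2.5 CPM against 22.9 to 37.5, genes chosen after their values were seen. Results for the 10 genes and for the lists that these libraries changed are also described without them.

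Promoter letters are shown because the 10 genes moved together. RefSeq windows (GRCm38.p6) from 250 bases before to 50 bases after the annotated start were matched for 8 of the 10 genes, in 11 windows. The stretches below are those of Pola1 (chrX:93632156-93632355, minus strand, 200 bases to 1 base before the start), Rpa2 (chr4:132768170-132768331, plus strand, 190 to 29 bases before it) and Prim1 (chr10:128015185-128015214, plus strand, 30 bases to 1 base before it). Capitals mark matches, on either strand, to the E2F-type letters TTCCCGC, the variant TTGGCGC, the variant TTCGCGC and the variant TTGCCGC, and to the letters CCAAT. In Prim1 the TTCCCGC match and the CCAAT match share 1 base, and all 30 bases shown lie in a GENCODE exon. RefSeq's whole span of Pola1, given with the gene positions, reaches further out than the start used for its window, so the Pola1 stretch lies inside that span.
Pola1: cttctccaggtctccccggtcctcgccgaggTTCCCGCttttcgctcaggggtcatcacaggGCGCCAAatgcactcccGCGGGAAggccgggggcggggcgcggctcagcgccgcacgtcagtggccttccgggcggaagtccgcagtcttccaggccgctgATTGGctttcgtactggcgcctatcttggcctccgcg
Rpa2: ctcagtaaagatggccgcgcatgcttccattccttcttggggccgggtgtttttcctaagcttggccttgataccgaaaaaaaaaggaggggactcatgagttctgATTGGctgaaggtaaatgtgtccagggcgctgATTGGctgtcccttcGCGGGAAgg
Prim1: tggaggcctgtcttgTTCCCGCCAATtctc
The E2F-type letters were in 7 of the 11 windows (63.6%), those of Fen1, Lig1, Pola1, Pold1, Prim1 and Rpa2, against 9.57% of 32851 windows of the same length. CCAAT was in 5 of the 11 (45.5%) against 37.4% of all windows. The GC box GGGCGG was in 6 (54.5%) against 35.7%, and TTTGAA, a cell-cycle homology letter run, was in 2 (18.2%) against 17.9%. These matches describe the letters in the windows and were not tested as binding sites.

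With WM-2474 at 96 h, the levels per kilobase of gene length spanned a wide range among the 10 genes. Pcna led at 37.4 ± 1.9 CPM per kb (SD, n = 3), followed by Lig1 at 17.9 ± 0.73, Pold1 at 14.1 ± 0.29 and Fen1 at 12.9 ± 0.50. Prim1 stood at 11.6 ± 1.2, Rpa2 at 10.3 ± 0.42 and Cdc45 at 7.11 ± 0.88 CPM per kb. Pole (5.51 ± 0.30), Pola1 (5.38 ± 0.32) and Gins1 (5.33 ± 0.34) shared the lowest place, with overlapping cultures, as did the neighbouring pairs Fen1 and Prim1, and Prim1 and Rpa2. Pcna was highest per kilobase in all 4 groups. With WM-8014 at 240 h it stood at 19.1 ± 0.42 CPM per kb, and Prim1 was at 3.30 ± 0.56 and overlapped Cdc45. Pola1 (2.06), Pole (2.04) and Gins1 (1.80) again shared the lowest place, with overlapping cultures.

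**Figure D1:**
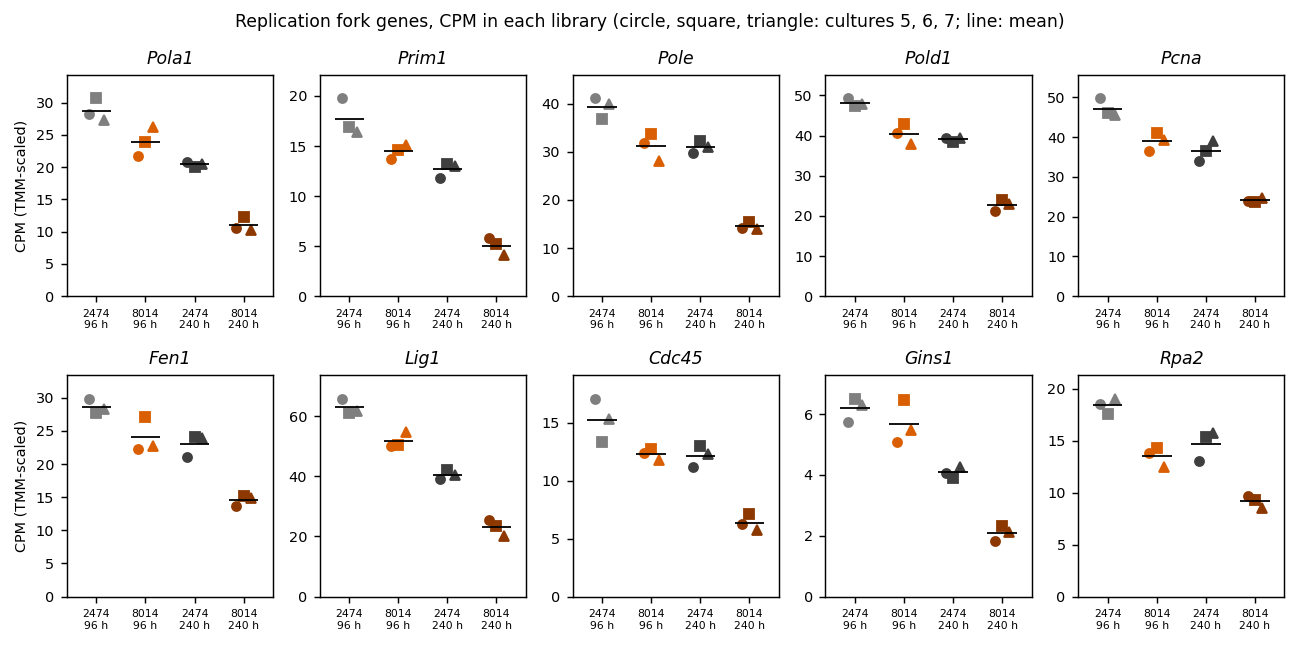
Level of each of the 10 replication fork genes in every library, as TMM-scaled CPM on a linear axis from 0, by group (named by the digits of the compound and the hours of treatment). Circles, squares and triangles are cultures 5, 6 and 7 and the line is the group mean; in every panel the 3 WM-8014 240 h cultures lie below all 9 others.

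Polymerase alpha-primase starts each new strand. At 96 h, Pola1, its DNA polymerase subunit, was at 28.3, 30.7 and 27.4 CPM with WM-2474 and at 21.7, 23.9 and 26.2 CPM with WM-8014 (cultures 5, 6 and 7, as in all such lists). By 240 h it was at 20.7, 20.01 and 20.6 CPM with WM-2474 and at 10.6, 12.2 and 10.3 CPM with WM-8014. The compound groups did not overlap at either time, but WM-8014 culture 7 came close to the controls at 96 h. The log2 fold change of Pola1, WM-8014 against WM-2474, was -0.26 ± 0.076 (SE; edgeR quasi-likelihood test, Benjamini-Hochberg adjusted p = 0.0183) at 96 h and -0.87 ± 0.085 (edgeR adjusted p = 4.27e-08) at 240 h. Prim1, the subunit that makes the RNA primer, was at 19.8, 16.9 and 16.4 CPM with WM-2474 and at 13.7, 14.6 and 15.2 CPM with WM-8014 at 96 h. Its 240 h values were 11.9, 13.3 and 13.0 CPM against 5.85, 5.19 and 4.16 CPM, groups far apart. Prim1 fell by 1.35 ± 0.11 on the log2 scale at 240 h (edgeR adjusted p = 4.13e-09), 2.55-fold, the largest change of the 10 at that time. At 96 h its log2 fold change of -0.26 ± 0.095 was just under the threshold (edgeR adjusted p = 0.0499). That call was lost when any 1 of the 6 libraries at 96 h was left out (edgeR adjusted p = 0.0502 to 0.174), and that of Pola1 without WM-2474 culture 6 (0.0814) or WM-8014 culture 5 (0.119).

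Polymerase epsilon copies the leading strand. Its catalytic subunit Pole was at 41.1, 36.9 and 39.9 CPM with WM-2474 and at 31.9, 33.7 and 28.0 CPM with WM-8014 at 96 h. At 240 h the values were 29.8, 32.3 and 31.0 CPM against 14.2, 15.4 and 14.0 CPM. All WM-8014 cultures lay below all WM-2474 cultures of the same time. The log2 fold change of Pole was -0.33 ± 0.067 (edgeR adjusted p = 0.00104) at 96 h and -1.08 ± 0.073 (edgeR adjusted p = 1.95e-10) at 240 h, a 2.12-fold lower level and the smallest p among the 10. Pold1, the catalytic subunit of polymerase delta, was at 49.3, 47.4 and 48.0 CPM against 40.6, 42.8 and 37.9 CPM at 96 h. By 240 h Pold1 was at 39.5, 38.4 and 39.5 CPM with WM-2474 and at 21.3, 23.9 and 23.0 CPM with WM-8014. Here too the groups were separate, and the control cultures lay close together at each time. Pold1 changed by -0.25 ± 0.054 (edgeR adjusted p = 0.00185) and -0.77 ± 0.057 (edgeR adjusted p = 8.56e-10) on the log2 scale.

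Pcna, Fen1 and Lig1 act together on the lagging strand. Pcna was at 49.8, 46.02 and 45.5 CPM with WM-2474 and at 36.5, 41.1 and 39.2 CPM with WM-8014 at 96 h. Its 240 h values were 34.0, 36.6 and 39.0 CPM against 23.9, 23.7 and 24.7 CPM. The groups were separate at both times, and the WM-8014 cultures were close together at 240 h. Pcna had the smallest change of the 10 at 240 h, -0.60 ± 0.063 on the log2 scale (edgeR adjusted p = 1.03e-07), after -0.26 ± 0.059 (0.0027) at 96 h. Mouse RefSeq lists the pseudogenes Pcna-ps1 and Pcna-ps2, which have no entry in the table, so reads shared with them could not be separated.

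Fen1 was at 29.9, 27.8 and 28.3 CPM with WM-2474 and at 22.4, 27.1 and 22.8 CPM with WM-8014 at 96 h, where WM-8014 culture 6 came just under the lowest control. At 240 h it was at 21.1, 24.1 and 23.9 CPM against 13.7, 15.2 and 14.95 CPM, well apart. The log2 fold change of Fen1 was -0.25 ± 0.076 (edgeR adjusted p = 0.0224) at 96 h and -0.64 ± 0.080 (edgeR adjusted p = 1.38e-06) at 240 h. The 96 h call for Fen1 was lost without culture 5 or 7 of WM-2474 (edgeR adjusted p = 0.0649 and 0.0664) and without culture 5 or 7 of WM-8014 (0.122 and 0.0959). At 96 h Lig1 was at 65.9, 61.2 and 61.7 CPM with WM-2474, all above the 49.99, 50.5 and 54.7 CPM with WM-8014. By 240 h Lig1 was at 39.3, 42.0 and 40.5 CPM against 25.4, 23.6 and 20.3 CPM. Lig1 changed by -0.28 ± 0.059 (edgeR adjusted p = 0.00169) and by -0.83 ± 0.066 (edgeR adjusted p = 1.87e-09) on the log2 scale, and its groups did not overlap.

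Cdc45 and GINS join the MCM ring to make the active helicase. Cdc45 was at 17.1, 13.3 and 15.3 CPM with WM-2474 and at 12.4, 12.8 and 11.8 CPM with WM-8014 at 96 h. At 240 h it was at 11.2, 13.0 and 12.3 CPM against 6.26, 7.12 and 5.77 CPM. The gap between the groups was narrow at 96 h and wide at 240 h. The log2 fold change of Cdc45 was -0.30 ± 0.099 (edgeR adjusted p = 0.03) at 96 h and -0.91 ± 0.11 (edgeR adjusted p = 6.60e-07) at 240 h. The 96 h call was lost without culture 5 or 7 of WM-2474 (edgeR adjusted p = 0.104 and 0.116) and without culture 5 or 7 of WM-8014 (0.072 and 0.0988). Gins1, one of the subunits of GINS, had the fewest reads of the 10, with 18 to 307 per library. It was at 5.76, 6.51 and 6.29 CPM with WM-2474 and at 5.09, 6.48 and 5.48 CPM with WM-8014 at 96 h, groups that overlapped. By 240 h Gins1 was at 4.07, 3.91 and 4.26 CPM against 1.82, 2.32 and 2.14 CPM, with no overlap. Gins1 did not pass at 96 h (log2 fold change -0.13, 95% interval -0.39 to 0.13, edgeR adjusted p = 0.494), and passed at 240 h (-0.92 ± 0.15, edgeR adjusted p = 5.09e-05).

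Rpa2 had the largest difference of the 10 at 96 h. It was at 18.6, 17.6 and 19.1 CPM with WM-2474 and at 13.9, 14.3 and 12.5 CPM with WM-8014. Rpa2 at 240 h was at 13.1, 15.4 and 15.7 CPM against 9.69, 9.27 and 8.54 CPM. The groups did not overlap at either time. Its log2 fold change was -0.45 ± 0.087 (edgeR adjusted p = 0.000791) at 96 h and -0.69 ± 0.091 (edgeR adjusted p = 2.74e-06) at 240 h.

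Counted over the 10 genes, 9 passed as lower with WM-8014 at 96 h, where 11.8% of all genes tested were lower and 22.8% changed in either direction. At 240 h all 10 passed as lower, against 21.4% of all genes (42.6% in either direction). The median log2 fold change of the 10 was -0.26 at 96 h and -0.85 at 240 h, beside 0.00 and 0.01 over all genes tested. The WM-8014 cultures lay wholly below the WM-2474 cultures for 9 genes at 96 h (19.9% of all genes) and for 10 at 240 h (25.6%). Within a culture number, all 3 cultures showed the lower level for each gene at each time. In these bulk libraries, fewer cells in S phase and less of these RNAs per cell cannot be told apart. The 96 h count was 3 of 10 without WM-2474 cultures 6 and 7, with all 10 log2 fold changes still below 0 (-0.48 to -0.02), and 5 of 10 without WM-8014 culture 5. The group means compared at 240 h do not include those 96 h libraries, although the fit takes the spread from all 12. The 240 h count was 10 under every alternative run for it, including a fit of the 240 h groups alone. That comparison was not rerun with only those 96 h libraries left out.

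**Figure D2:**
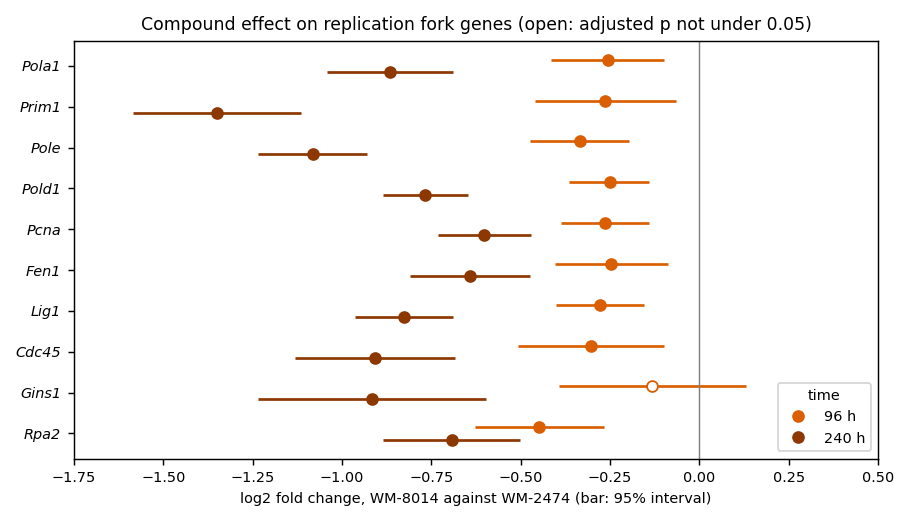
Log2 fold change of each replication fork gene, WM-8014 against WM-2474, at 96 h (light) and 240 h (dark), with 95% intervals from the edgeR fit; an open symbol marks an adjusted p not under 0.05. All 20 estimates lie below 0, from -0.13 (Gins1 at 96 h) to -1.35 (Prim1 at 240 h).

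The compound effect was larger at 240 h than at 96 h for 9 of the 10 genes by a test of the difference itself, which 5.53% of all genes passed in this direction and 10.7% in either. The difference between the effects was largest for Prim1, at -1.09 ± 0.15 on the log2 scale (edgeR adjusted p = 4.58e-05). Gins1 followed at -0.78 ± 0.20 (edgeR adjusted p = 0.0128) and Pole at -0.75 ± 0.10 (edgeR adjusted p = 3.52e-05). The differences of Pola1, Cdc45, Lig1, Pold1, Fen1 and Pcna were -0.61, -0.60, -0.55, -0.51, -0.39 and -0.34. Rpa2 did not pass (-0.24, 95% interval -0.51 to 0.02, edgeR adjusted p = 0.254). The median difference was -0.58 over the 10 genes and 0.00 over all genes tested. Leaving out WM-2474 cultures 6 and 7 at 96 h took the count from 9 to 5. The call for Pcna was lost without WM-2474 96 h culture 7 (edgeR adjusted p = 0.0558). The call for Fen1 was lost without culture 6 or 7 of WM-2474 at 96 h, culture 6 of WM-8014 at 96 h, culture 6 or 7 of WM-2474 at 240 h or culture 5 of WM-8014 at 240 h (edgeR adjusted p = 0.051 to 0.0846). Without culture number 5, 6 or 7 in all groups, 8, 5 and 4 of 10 passed. The call for Gins1 was lost each time (edgeR adjusted p = 0.0633, 0.0834 and 0.111), as it was without WM-2474 96 h cultures 6 and 7 together. Leaving out number 6 or 7 also lost the calls for Pcna (edgeR adjusted p = 0.242 and 0.171), Fen1 (0.278 and 0.132) and Cdc45 (0.0715 and 0.104). The call for Pola1 was lost without number 7 (edgeR adjusted p = 0.0708).

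The replication fork genes were also lower at 240 h than at 96 h with the inactive control. With WM-2474 all 10 passed as lower, against 19.1% of all genes (38.9% in either direction), with log2 fold changes from -0.63 ± 0.058 for Lig1 (edgeR adjusted p = 2.09e-08) to -0.30 ± 0.052 for Pold1 (edgeR adjusted p = 9.05e-05). With WM-8014 all 10 passed as lower, against 25% of all genes (49.7% in either direction), from -1.54 ± 0.11 for Prim1 (edgeR adjusted p = 3.23e-10) to -0.57 ± 0.097 for Rpa2 (edgeR adjusted p = 3.91e-05). The medians were -0.35 and -1.003, beside -0.01 and -0.02 over all genes. The 2 times did not overlap for any of the 10 genes under either compound, where 25% and 28.8% of all genes lay wholly lower. These comparisons share libraries with those between the compounds. The call for Cdc45 with WM-2474 (-0.32 ± 0.094, edgeR adjusted p = 0.0104) was lost without culture 7 at 96 h (0.0553) or culture 5 at 240 h (0.0568). Without culture number 5 in all groups 7 of 10 passed with WM-2474. Fen1, Rpa2 and Cdc45 were then lost (edgeR adjusted p = 0.0517, 0.0623 and 0.205). Cdc45 was also lost without culture number 7 (edgeR adjusted p = 0.091). Without the 96 h cultures 6 and 7 together fewer of the 10 passed, and all log2 fold changes stayed below 0 (-0.70 to -0.33).

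The summed level of the 10 genes shows the order of the groups. This sum was 313 ± 11 CPM under WM-2474 and 256 ± 9.8 CPM under WM-8014 at 96 h, and 234 ± 8.5 and 133 ± 5.0 CPM at 240 h (SD, n = 3). WM-8014 at 96 h and WM-2474 at 240 h stood close together, and the cultures of these groups overlapped for 6 genes, Pcna, Fen1, Pole, Pold1, Cdc45 and Rpa2. For Lig1, Pola1, Prim1 and Gins1 the WM-2474 240 h cultures were all lower than the WM-8014 96 h cultures. Relative to WM-2474 at 96 h, the mean CPM left in WM-8014 at 240 h ran from 28.6% for Prim1 to 51.2% for Pcna, with Gins1 at 33.8%, Lig1 at 36.7%, Pole at 37% and Pola1 at 38.3%. The coefficient of variation between cultures of a group was at most 16.9% for any of the 10 genes, reached by Prim1.

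The other subunits of the same complexes did not all follow. In polymerase alpha-primase, Pola2 (the regulatory subunit) and Prim2 (the large primase subunit) fell at 240 h by 0.42 ± 0.069 and 0.36 ± 0.074 on the log2 scale (edgeR adjusted p = 3.44e-05 and 0.000407). In polymerase epsilon, Pole2 fell by 0.92 ± 0.15 (edgeR adjusted p = 3.35e-05), while the histone-fold subunits Pole3 (-0.07, 95% interval -0.25 to 0.11) and Pole4 (-0.11, 95% interval -0.30 to 0.08) did not pass. In polymerase delta, Pold2 and Pold3 fell by 0.64 and 0.54 (edgeR adjusted p = 4.57e-07 and 1.16e-05).

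Pold4, the smallest subunit of polymerase delta, rose. Its level was 10.5 ± 0.62 CPM under WM-2474 and 13.9 ± 2.0 CPM under WM-8014 at 96 h, and at 13.3 ± 1.1 and 17.5 ± 0.35 CPM at 240 h (SD, n = 3). Its log2 fold change was 0.41 ± 0.10 (edgeR adjusted p = 0.00524) at 96 h and 0.40 ± 0.091 (edgeR adjusted p = 0.00118) at 240 h, and it also rose with time under WM-2474 (0.34) and WM-8014 (0.33; edgeR adjusted p = 0.00791 and 0.00657). The 96 h call was lost without WM-8014 culture 7 (0.28, edgeR adjusted p = 0.0515). Leaving out culture number 7 in all groups also lost it (0.28, edgeR adjusted p = 0.16). Without WM-2474 96 h cultures 6 and 7 that call (0.50) and the call over time under WM-2474 (0.43) were both lost. Neither time call held with library totals alone (0.19 and 0.15, edgeR adjusted p = 0.102 and 0.195). The one under WM-2474 was also lost without culture number 5 or 7 in all groups (edgeR adjusted p = 0.0768 and 0.0738). The one under WM-8014 was lost without culture number 5 or 6 (edgeR adjusted p = 0.0793 and 0.0724) and with counts thinned to the smallest total (0.0708).

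In the helicase, the MCM ring genes Mcm2 to Mcm7 all fell at 240 h, from -0.59 for Mcm7 to -1.30 for Mcm5 on the log2 scale (edgeR adjusted p = 2.94e-07 and 4.99e-10). At 96 h 5 of these passed as lower and Mcm6 did not (-0.09, edgeR adjusted p = 0.359). Without WM-2474 cultures 6 and 7, Mcm2, Mcm3, Mcm4 and Mcm7 lost that call (log2 fold changes -0.33 to -0.18). Mcm2 and Mcm4 also lost it without culture number 7 in all groups (edgeR adjusted p = 0.0865 and 0.0595). Gins2 fell by 0.44 at 96 h and by 0.67 at 240 h (edgeR adjusted p = 0.000264 and 8.58e-07). Gins4 fell at 240 h by 0.25 (edgeR adjusted p = 0.00815). Gins3 passed as lower at 96 h (-0.40, edgeR adjusted p = 0.0325). That call was lost with thinned counts (edgeR adjusted p = 0.0843), with DESeq2 (DESeq2 adjusted p = 0.0886) and without any 1 library at 96 h other than WM-8014 culture 5. At 240 h Gins3 had -0.33 (edgeR adjusted p = 0.0662). It passed there with library totals alone (0.0339) and without WM-2474 culture 5 (0.0263) or WM-8014 culture 6 (0.0458). Of the RPA subunits, Rpa1 fell by 0.25 and 0.31 at the 2 times (edgeR adjusted p = 0.00036 and 7.78e-06), and Rpa3 did not pass at either (-0.15 and -0.36, edgeR adjusted p = 0.502 and 0.0576), but passed at 240 h without WM-2474 culture 5 (0.0363) or WM-8014 culture 6 (0.0302). Rpa3 at 240 h also passed with the replicate block (edgeR adjusted p = 0.0408), with no filter (0.0445), with library totals alone (0.0314), with thinned counts (0.0234) and in a fit of the 240 h groups alone (0.0449). All 5 clamp loader genes, Rfc1 to Rfc5, fell at 240 h, from -0.29 for Rfc1 to -0.64 for Rfc4.

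**Figure D3:**
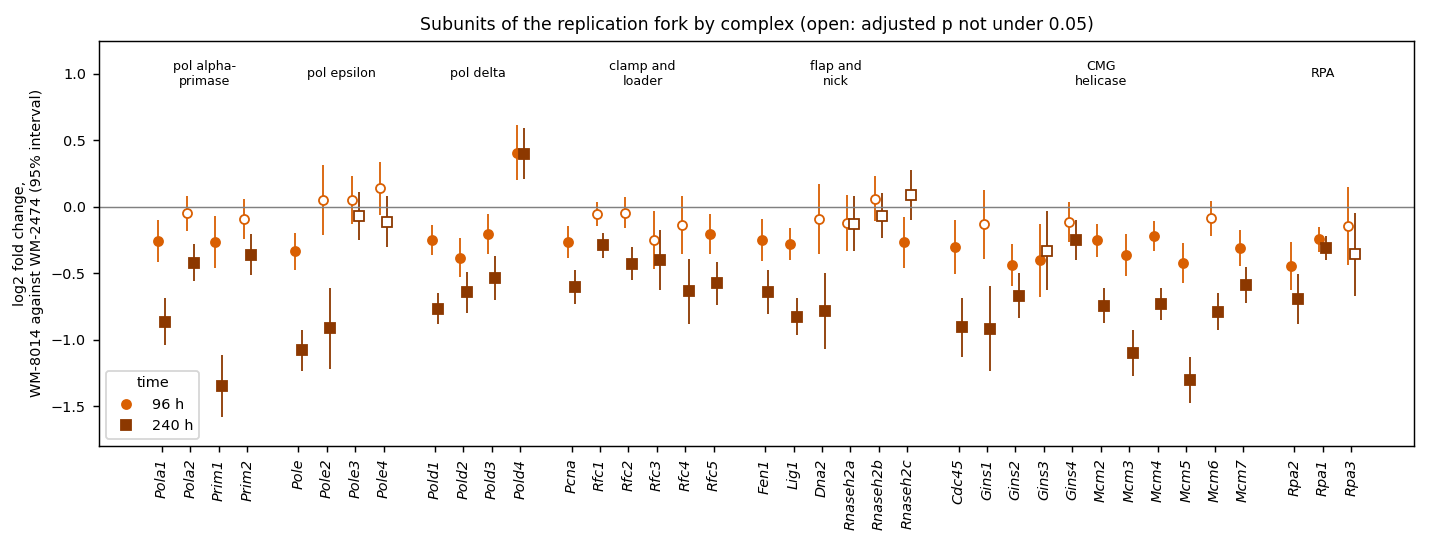
Log2 fold change, WM-8014 against WM-2474, of the 10 replication fork genes and the other subunits or partners of their complexes at 96 h (circles) and 240 h (squares), with 95% intervals; open symbols mark an adjusted p not under 0.05. Most subunits lie below 0 at 240 h, Pole3, Pole4 and the 3 RNase H2 genes lie near 0, and Pold4 lies at 0.40.

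Ratios within a library show the uneven subunits without reference to library size. Pold4 per Pold1, both per kilobase, was 0.813 ± 0.064 with WM-2474 and 1.30 ± 0.27 with WM-8014 at 96 h, and 1.27 ± 0.084 and 2.90 ± 0.23 at 240 h (SD, n = 3). Pole3 per Pole was 5.09 ± 0.23 and 6.72 ± 0.39 at 96 h, and 6.33 ± 0.64 and 13.0 ± 1.4 at 240 h. Prim2 per Prim1 was 0.933 ± 0.073, 1.06 ± 0.020, 1.20 ± 0.021 and 2.37 ± 0.38 in the same order. Pole2 per Pole was 0.981 ± 0.052 with WM-2474 and 1.03 ± 0.22 with WM-8014 at 240 h, and overlapped. Over 15 pairs of a fork gene and a partner in its complex, the mean log2 ratio was higher with WM-8014 in 15 at 240 h. These include Pole2 to Pole, higher by only 0.05. The groups did not overlap in 7 pairs at 96 h and 14 at 240 h. Many pairs share a gene and so are not independent, and the share over other pairs of genes was not computed. The two-sided exact permutation test of 3 against 3 cultures cannot go below p = 0.1, which adjusted over the 30 tests gave 0.143 at the lowest, so no ratio passed.

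**Figure D4:**
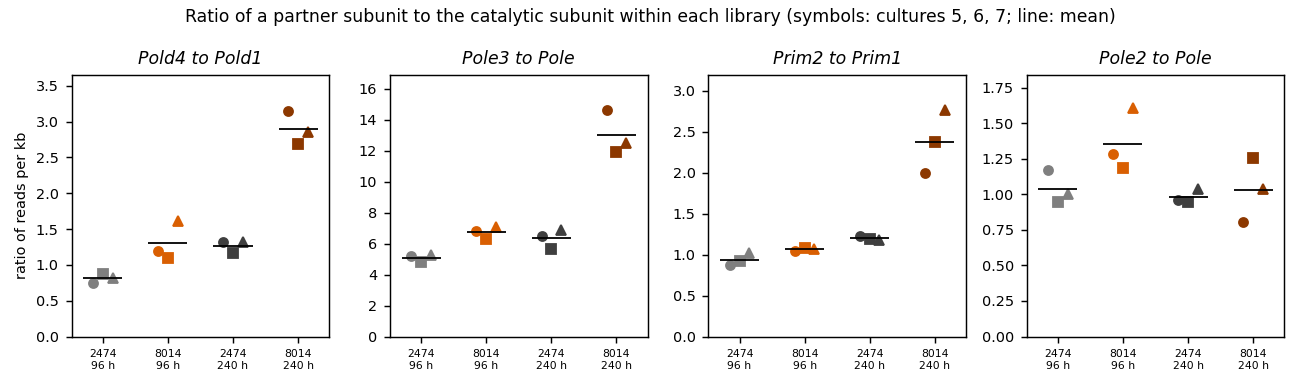
Ratio of a partner subunit to the catalytic subunit in each library, both as reads per kilobase of gene length, on a linear axis from 0, for 4 pairs in the 4 groups; symbols are cultures 5, 6 and 7 and lines are means. The WM-8014 240 h cultures are highest for Pold4 to Pold1 (2.69 to 3.15), Pole3 to Pole and Prim2 to Prim1, while Pole2 to Pole overlaps between the compounds at 240 h.

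A list of 45 further fork genes (the partners above with checkpoint, clamp-associated and firing factors) gives the surroundings. At 96 h 23 passed as lower (11.8% of all genes) and 1 as higher, with a median log2 fold change of -0.21. At 240 h 36 passed as lower (21.4% of all genes) and 1 as higher, with a median of -0.58. The higher gene was Pold4 at both times. By the smallest p, the leading partners at 96 h were Pclaf, a Pcna-binding protein (-0.56), Dbf4, the activator of the Cdc7 kinase (-0.43), Gins2 and Wdhd1, which links polymerase alpha to the helicase (-0.42). Pclaf went from 62.6 ± 0.42 to 42.3 ± 1.3 CPM at 96 h and from 41.8 ± 3.0 to 14.2 ± 2.3 CPM at 240 h (SD, n = 3). At 240 h Pclaf (-1.52, edgeR adjusted p = 3.49e-11) led again, with Wdhd1 (-1.21), Mcm5 (-1.30) and Dbf4 (-1.04). With time under WM-2474 the leading partners were Pclaf (-0.58), Wdhd1 (-0.53), Pold3 (-0.48) and Dbf4 (-0.45), and under WM-8014 Pclaf (-1.54), Wdhd1 (-1.32), Clspn, a checkpoint mediator (-1.23), and Mcm5 (-1.28). At 96 h the count was 6 without WM-2474 cultures 6 and 7, and 11 to 24 when 1 library or 1 culture was left out; Wdhd1 lost its call without those 2 cultures (edgeR adjusted p = 0.0522). Over time under WM-2474, 33 of the 45 passed (38.9% of all genes), 32 of them as lower (19.1% of all genes). Fewer passed without those 2 cultures, all as lower.

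DNA polymerases and ligases that serve repair, bypass and mitochondria were counted in the same way. Of 16 such genes 2 passed as lower at 96 h, where 11.8% of all genes did. At 240 h 4 passed as lower, where 21.4% of all genes did, and 1 as higher, with medians of -0.01 and -0.08 on the log2 scale. Polq, the polymerase of end joining, went with the fork genes, from 12.5 ± 0.96 to 9.10 ± 1.3 CPM at 96 h and from 7.76 ± 0.34 to 3.53 ± 0.51 CPM at 240 h (log2 fold changes -0.46 and -1.09, edgeR adjusted p = 0.0046 and 9.20e-07). Lig3, the ligase of mitochondria and base excision repair, fell by 0.28 at 240 h (edgeR adjusted p = 0.000108). Polg, the mitochondrial replicase, fell by 0.15 and 0.24 (edgeR adjusted p = 0.0334 and 0.000505). Polh, a bypass polymerase, had -0.15 at 96 h (edgeR adjusted p = 0.0717) and fell by 0.20 at 240 h (edgeR adjusted p = 0.0108). The higher gene was Polk (0.14, edgeR adjusted p = 0.0127), another bypass polymerase, named after its values were seen. The 240 h calls for Polh and Polk were both lost without culture 7 of WM-2474 (edgeR adjusted p = 0.0663 and 0.0678) or of WM-8014 (0.0703 and 0.0927). The 96 h call for Polg was lost without culture 5 or 7 of WM-2474 (edgeR adjusted p = 0.095 and 0.195). Leaving out culture 6 or 7 of WM-8014 also lost it (edgeR adjusted p = 0.06 and 0.166). Without culture number 5 in all groups, Polg and Polq both lost the 96 h call (edgeR adjusted p = 0.0723 and 0.0946). The same held without number 7 (edgeR adjusted p = 0.473 and 0.0875). Neither call held without WM-2474 cultures 6 and 7 together (log2 fold changes -0.19 for Polg and -0.52 for Polq). The summed level of the 16 genes was 419 ± 2.7 and 407 ± 4.9 CPM at 96 h, and 414 ± 2.4 and 387 ± 6.2 CPM at 240 h, so that per 100 reads of these genes the 10 fork genes had 73.1 to 77.2 and 61.8 to 65.0 reads at 96 h, and 54.1 to 58.3 and 32.8 to 35.3 at 240 h.

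Genes of other phases of the cell cycle were counted beside them. Of 15 origin licensing genes, 6 of them also among the partners, 11 passed as lower at 96 h (11.8% of all genes) and 12 at 240 h (21.4%), with medians of -0.27 and -0.75. Of 16 genes of nucleotide synthesis, 6 and 11 passed as lower, beside the same shares of all genes. At each time 1 passed as higher, and the medians were -0.13 and -0.35. The higher genes, named after their values were seen, were Dut, a dUTPase, at 96 h (0.17, edgeR adjusted p = 0.0331) and Rrm2b, a ribonucleotide reductase subunit used outside S phase, at 240 h (0.43, edgeR adjusted p = 0.000256). All 20 genes of G2 and mitosis passed as lower at both times, with medians of -0.40 and -1.18. Without WM-2474 cultures 6 and 7, fewer licensing, nucleotide synthesis and mitotic genes passed at 96 h by edgeR. Leaving out 1 library or 1 culture number at 96 h gave 6 to 11 licensing genes and 2 to 6 nucleotide synthesis genes in either direction. Without any 1 of the 96 h libraries other than WM-2474 culture 6, no nucleotide synthesis gene passed as higher by edgeR, Dut included. Per 100 reads of these mitotic genes the 10 fork genes had 18.3 to 19.7 reads with WM-2474 and 19.8 to 20.8 with WM-8014 at 96 h. At 240 h these values were 20.9 to 21.2 and 25.7 to 28.9, so the WM-8014 cultures at 240 h were above the other 9.

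Levels of the 10 genes were correlated over the 12 libraries, but only loosely within groups (median 0.276 over 45 pairs). The 45 pairs had a median Pearson correlation of log2 CPM of 0.963, from 0.868 for Gins1 and Rpa2 to 0.994 for Pole and Pold1, a description over libraries that share the 4 groups. The mean of the 10 standardised levels was 0.898 to 1.09 SD units with WM-2474 and 0.291 to 0.554 with WM-8014 at 96 h. At 240 h it was 0.014 to 0.251 with WM-2474 and -1.65 to -1.39 with WM-8014. Genes on any list examined here, such as the MCM and mitotic genes, were not ranked for likeness to this mean. Among 12047 other genes, those most like this mean were Cip2a (r = 0.997), which encodes an inhibitor of the phosphatase PP2A, Anp32e (0.997) and Nasp (0.997), which encode histone chaperones, Tmpo (0.996), which encodes a nuclear lamina-associated protein, and Racgap1 (0.996), which encodes a cytokinesis protein. Their log2 fold changes at 240 h ran from -0.62 for Anp32e to -1.18 for Tmpo. These genes were picked by the same libraries, so their changes are a description only.

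By the GRCm38.p6 annotation, Pcna and Gins1 lie on chromosome 2 (chr2:132249286-132253180 and chr2:150909556-150931280), and Lig1 and Pold1 on chromosome 7 (chr7:13277175-13311426 and chr7:44532744-44548815). The others lie on chromosomes 19 (Fen1, chr19:10199132-10204393), X (Pola1, chrX:93304766-93632387), 5 (Pole, chr5:110286319-110337468), 10 (Prim1, chr10:128015215-128030030), 16 (Cdc45, chr16:18780447-18811972) and 4 (Rpa2, chr4:132768360-132778746). Exons of 4 members overlap exons of a gene on the opposite strand, and the strand setting of the counting is not given in the sources used here. These are Fen1 with Tmem258 and Gm10143, Lig1 with Zswim9, Cdc45 with Ufd1 and Pole with Gm15792. The log2 fold changes of Tmem258, Zswim9 and Ufd1 were 0.08, 0.13 and 0.01 at 96 h and 0.13, 0.04 and 0.06 at 240 h, and none passed (edgeR adjusted p = 0.0814 to 0.874). Gm10143 and Gm15792 were not analysed here.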

How the data were processed

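Poly(A)-selected stranded RNA libraries were made from 12 cultures, per the labels' protocols. The deposited table holds raw read counts per Entrez gene, made by the authors with featureCounts on mm10, per the submitters' processing notes, and a gene length per gene. For the aligner, annotation, strand setting and tool version, the details were not given in the sources used here. Replicates were not pooled, and columns were matched to samples by the labels' descriptions. Pairs of replicates differed by more than sampling noise (chi-square per degree of freedom 2.1 to 7.13), and none was treated as a duplicate.

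Of 27179 genes, 25275 (93%) were matched to RefSeq symbols. The analysis used edgeR 4.0.16 (limma 3.58.1) in R 4.3.3: filterByExpr by group kept 14136 genes holding at least 99.93% of the reads, TMM scaled the totals, and 1 mean per group was fitted over all 12 libraries. Contrasts were tested two-sided with the robust quasi-likelihood F test, Benjamini-Hochberg adjusted over all genes tested, with a threshold of 0.05. Standard errors and 95% intervals came from each log2 fold change with its F value. CPM are counts per 1000000 TMM-scaled reads; per-kilobase levels use the deposited gene length. A prior count of 2 was used for log2 CPM of single libraries. In a library, 3 reads equal 0.0654 to 0.296 CPM, a limit of counting alone. The common biological coefficient of variation was 4.64%.

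The 10 genes and the lists were chosen with earlier results of these data known. The text names the 10 genes, the other subunits of their complexes and the 4 partners with the smallest p per comparison. It also names the 3 other polymerases or ligases with the smallest p per compound comparison. Named last are the 5 genes outside all lists that were most correlated with the mean of the 10. Same-numbered cultures deviated together at 96 h (r = 0.141 to 0.158 for each number) and so met the limit set for pairing, but the fits are without the block, which was run as an alternative. That limit of 0.1 for every number was not met in the other comparisons (0.048 to 0.243 between the compounds at 240 h). Alternatives were another filter, other scalings, DESeq2 1.42.0, a replicate block, thinning to the smallest total, fits on the compared groups alone and libraries left out. In simulated data for the 96 h comparison (13976 genes tested), 50 genes each were changed by 1.25, 1.5, 2 and 4-fold. The test recovered 68%, 76%, 94% and 100% of these and called 12 unchanged genes. The counts were drawn from the fitted spread, with few changed genes and no effect of culture number. These rates therefore need not hold for the real libraries.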

Additional observations from a re-analysis of the deposited data

Results flagged for a closer look

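The compound effect on 9 of the 10 replication fork genes differed between the times, by the interaction test over all genes (edgeR quasi-likelihood test, adjusted p under 0.05). The log2 fold change with WM-8014 was more negative at 240 h than at 96 h by a difference of -1.09 for Prim1, -0.78 for Gins1, -0.75 for Pole, -0.61 for Pola1 and -0.60 for Cdc45. For Lig1 the difference was -0.55, for Pold1 -0.51, for Fen1 -0.39 and for Pcna -0.34. Prim1, Pole, Lig1 and Pold1 kept this call under every alternative tried.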

How the results depend on the processing

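Over the 10 genes and 5 comparisons, 880 values were recomputed under the alternatives: 811 kept their direction and side of the threshold, 69 kept the direction but lost the call, and none changed direction. The 240 h comparison between the compounds and the time comparison with WM-8014 lost no call of the 10. When 1 library or 1 culture number was left out, the number of the 10 called was 4 to 8 (9 with all libraries) at 96 h and 4 to 9 (9) for the difference of effects, and the number of all genes called was 1750 to 2762 (3218) and 724 to 1603 (1510). Without culture 5, or without culture 7, in all groups it was 4 of 10 at 96 h. With WM-2474 cultures 6 and 7 at 96 h both left out, the lone library left being assumed to vary like the other groups, 3 of the 10 and 869 of all genes were called at 96 h, 5 and 586 for the difference of effects, and 8 and 2710 (of 10 and 5497) for time with WM-2474. DESeq2 called 7 of the 10 at 96 h, as did counts thinned to the smallest total. With the replicate block the counts of the 10 were 9, 10, 10, 10 and 9, the same as without it, and 3590, 6330, 5811, 7236 and 1840 of all genes were called. The block changed no call of the 10, nor any 96 h call of the partners or other polymerases. Library totals without TMM put the median of all genes at -0.16 and -0.20 (-0.01 and -0.02 with TMM) in the time comparisons with WM-2474 and WM-8014. They split the calls into 5955 lower and 1365 higher (2697 and 2800 with TMM), and 6850 and 1749 (3527 and 3504); between the compounds at 240 h the split was 3909 and 2361 (3031 and 2996), and for the difference of effects 1059 and 519 (782 and 728). All 10 genes were lower under this scaling, by medians of -0.49 and -1.18 over time. Polg over time with WM-8014 was at 0.01 with TMM and at -0.17 (adjusted p = 0.00661) with totals alone; the cause was not tested. The alternatives for the lists beside the 10 genes were chosen after seeing the data. At 18 to 307 reads per library, Gins1 had the widest intervals of the 10 genes.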

Other observations

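Within groups, the 10 replication fork genes deviated from their group means only loosely together. The correlation of these deviations over the 12 libraries had a median of 0.276 over 45 pairs, from -0.477 to 0.949, and 35 of the 45 were above 0. The GC content of the 11 promoter windows had a median of 54.7%, beside 52.7% over 32851 windows.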
